A study of Mus musculus with 32 samples.

Results

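The plasma cells of mice with activated PIK3CD signalling were compared with the light zone germinal centre B cells of the same genotype, in 8 of the 32 RNA-seq libraries of the study. The members were chosen by sample title and column name, 4 plasma cell (PC) and 4 light zone (LZ) libraries, with no use of measured values. The study sorted naive B cells, dark zone and light zone germinal centre B cells and plasma cells from the spleen, in an activated PIK3CD and a WT group, to learn what activated PI3K-delta signalling does in each. All mice were C57BL/6, 12 weeks old, and had received the hapten-carrier antigen NP-CGG in alum into the peritoneal cavity 14 days earlier. Each library came from 500 sorted cells and was amplified with SMART-Seq v4, a kit that makes full-length cDNA from very little RNA.

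Both groups are labelled AID-cre aPIK3CD, and the WT groups AID-cre WT, so the control mice carried AID-cre too. The labels give neither the altered PIK3CD allele nor the gates used to sort the cells, and they do not say whether the libraries of a group came from separate mice, so every p-value measures the spread between these libraries, which may be technical. The genotype field of both libraries of aPIK3CD replicate 1 reads AID-cre WT, against their titles and column names. The titles were followed. Without both libraries of that replicate, 10 genes named here lost their call between PC and LZ: Cd38, Fcmr, Hk1, Ighe, Klf2, Psmd14, Psme3, Rfxank, Sec24b and Tnfaip3.

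PIK3CD is the catalytic subunit of PI3K-delta, the lipid kinase that leukocytes use downstream of the B cell receptor. It makes the membrane lipid that recruits AKT, which holds FOXO transcription factors out of the nucleus and feeds the mTOR pathway. In the germinal centre, B cells divide and mutate their antibody genes in the dark zone and compete for antigen and T cell help in the light zone. Some leave as plasma cells, in which BLIMP1 (Prdm1), IRF4 and XBP1 replace the B cell programme of PAX5, BCL6 and BACH2 and the endoplasmic reticulum (ER) expands to fold and export antibody.

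The deposited values were raw counts per gene. The PC libraries held 652722 to 788999 counts and the LZ libraries 1333598 to 1584402, so population and depth do not overlap, and the comparison was repeated on counts thinned to the smallest total. Immunoglobulin and T cell receptor genes took 7.47 to 9.07% of counts in PC libraries and 0.94 to 1.06% in LZ libraries. Within a group, log2 CPM (counts scaled to a common library total) of library pairs correlated across genes with r between 0.921 and 0.946, and no pair was alike within counting noise. In bulk libraries, fewer cells of a type and less RNA per cell cannot be told apart.

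Plasma cell markers were higher in PC and germinal centre markers in LZ libraries. The summed level of 11 plasma cell markers was 18320 to 20470 CPM in PC and 1775 to 2490 CPM in LZ libraries, where Tnfrsf17 had no count. The 10 germinal centre markers summed to 231 to 328 CPM in PC and 2160 to 2803 CPM in LZ, with Mybl1 at 0 in PC. The 6 dark zone markers summed to 134 to 197 CPM in PC and 808 to 1139 CPM in LZ. The 6 naive B cell markers summed to 191 to 235 and 839 to 1075 CPM, and the 7 pan B cell markers to 3084 to 3367 and 4485 to 5342 CPM. In these sets Cxcr4, Cd79a and Cd79b alone had a higher mean in PC. Of the light zone markers, Cd83, Cd86 and Slamf1 were all higher in LZ, while the sum of the 6 genes differed little, 1349 to 1391 against 1503 to 1940 CPM, because Nfkbia alone gave a mean of 1220 CPM in PC. The 10 T cell markers had a count each in both groups and summed to 270 to 414 CPM in PC and 393 to 553 CPM in LZ, where Lck alone gave a mean of 377 CPM, against 82.2 CPM in PC. All other T cell markers but Cd8a had a higher mean in PC, such as Cd3g (78.0 against 30.9 CPM) and Trac (74.6 against 27.8 CPM). The 12 monocyte, macrophage and neutrophil markers summed to 244 to 680 and 85.0 to 491 CPM, and the 8 natural killer markers to 45.2 to 299 and 48.2 to 162 CPM. Of the 12 myeloid markers, S100a8 and S100a9 were at 0 in PC, and S100a8 and Ly6g in LZ. Lyz2 (247 against 114 CPM) and Cd68 (148 against 58.85 CPM), named after their values were seen, had a higher mean in PC. So did Ly6g, at 1.66 CPM, and all other myeloid markers with a count had a lower mean in PC. The 9 dendritic cell markers summed to 1166 to 1256 CPM in PC and 224 to 263 CPM in LZ, of which Cst3, named after its values were seen, gave 952 and 153 CPM on average and Clec9a was at 0 in both. The 9 erythroid and platelet markers summed to 259.9 CPM in PC replicate 4, to 10.2 to 25.5 CPM in the other PC libraries and to 22.7 to 40.3 CPM in LZ. The 8 stromal and endothelial markers summed to 52.5 to 84.0 CPM in PC and 371 to 436 CPM in LZ, where Cr2, which B cells also express, gave 375 CPM, and Col1a1 was at 0 in both. The part of other cell types in the results was not tested.

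Of 9433 genes that passed the filter on low counts, 2787 (29.5%) were higher and 2982 (31.6%) lower in plasma cells, 61.2% in either direction, at an adjusted p below 0.05 in edgeR's quasi-likelihood test with Benjamini-Hochberg adjustment over all genes tested. All adjusted p-values below come from this test. On counts thinned to the smallest library 5269 of 8599 genes passed. The groups of 4 did not overlap in CPM for 5265 genes (55.8%). Above a 2-fold change lay 1912 higher and 1985 lower genes, and above 8-fold 490 and 466. The first principal component of log2 CPM held 81.1% of the variance and set the PC libraries apart from the LZ libraries. With so many genes called, the counts of each gene list below are read against 29.5% higher, 31.6% lower and a median log2 fold change of -0.07 over all genes tested.

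The transcripts with the greatest fold change were close to all or none. Tnfrsf17, the gene of the survival receptor BCMA, read 492, 525, 477 and 529 CPM in the PC libraries and had no count in any LZ library, at least 1100-fold higher (adjusted p = 8.16e-11). Copz2, a subunit of the coatomer of Golgi vesicles, averaged 208 ± 19.3 CPM (SD, n = 4) against no count, at least 453-fold higher. Prlr, the prolactin receptor, averaged 202 ± 35.4 CPM against no count, at least 440-fold higher. Both were high in each PC library.

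The rest of the 12 genes that led the PC side were of varied function. Wipi1, which binds phosphoinositides on forming autophagosomes, was at least 206-fold higher and Slc16a5, of the monocarboxylate transporter family, at least 167-fold higher. Prg2, the proteoglycan that eosinophils also store, averaged 1064 ± 69.9 CPM in PC and 1.31 ± 1.16 CPM in LZ. The ER-membrane protein gene Fndc3b averaged 319 CPM against 1 count in all LZ libraries, a ratio of 2300 with a 95% counting interval of 374 to 82700. The actin bundler Pls1 (418 against 0.783 CPM), the zinc importer Slc39a4 (139 against 0.166), the glycolytic mutase gene Pgam2 (183 against 0.331), the cytochrome oxidase subunit Cox6a2 (101 against 0.166) and the antisense transcript Kcnmb4os2 (144 against 0.165 CPM) completed them. For Kcnmb4os2, whose name marks it as opposite-strand, the sources used here do not give the strand setting of the counting, so reads of its sense partner cannot be told apart.

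On the LZ side stood genes of the germinal centre reaction and of division. Mybl1, the germinal centre factor A-MYB, read 214, 230, 167 and 147 CPM in LZ libraries and had no count in plasma cells, at least 153-fold lower there (adjusted p = 2.38e-08). Ffar1, a fatty acid receptor gene (at least 79.5-fold), the nuclease gene Ankle1 (55.6), the mitotic kinesin gene Kif18b (54.7) and Kynu, an enzyme of tryptophan breakdown (at least 45.3-fold), likewise had no count in any PC library.

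Cd22, the inhibitory lectin of the B cell receptor, averaged 549 ± 16.2 CPM in LZ and had 2 counts in all PC libraries, a ratio of 607 (counting interval 184 to 5500). Rgs13, a brake on chemokine receptor signalling in germinal centre B cells, averaged 407 ± 81.3 against 1.36 ± 1.74 CPM. Parp8 (200 against 0.396 CPM), Cdca7 (214 against 0.852), Emid1 (89.3 against 0.365) and Nxpe2 (85.4 against 0.396 CPM) also led the LZ side.

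**Figure D1:**
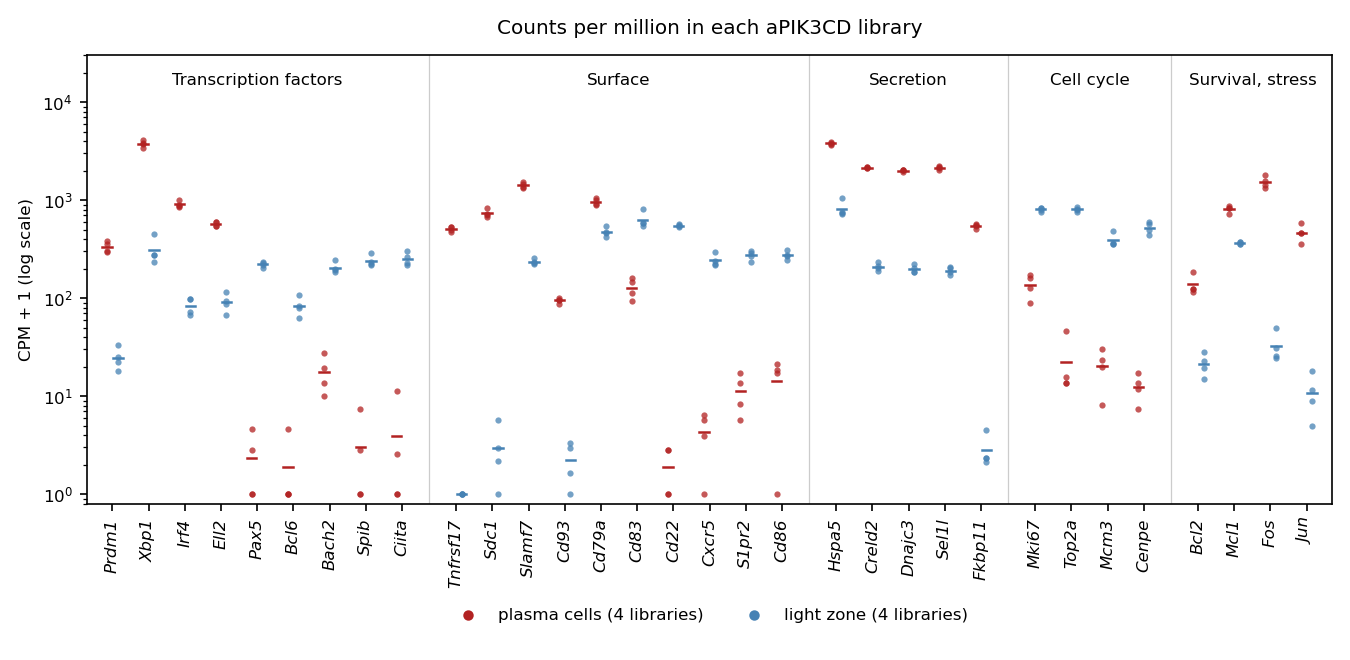
CPM plus 1 (log scale) of 32 genes in each of the 4 plasma cell (red) and 4 light zone (blue) libraries of the aPIK3CD group, with bars at the group means. For Tnfrsf17 the plasma cell libraries lie at 477 to 529 CPM and the light zone libraries at 0. No gene shown has overlapping groups. The genes were picked from those named in the text, some for the smallest p or the largest fold change, which favours such a separation. Named genes with overlapping groups, such as Zbtb20 and Cd38, are not drawn. Of all genes tested 55.8% had no overlap.

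Of 10 plasma cell transcription factors tested, 7 were higher in PC (70.0%), 1 was lower and 2 did not pass, with a median log2 fold change of 3.06. Prdm1 read 295, 383, 299 and 352 CPM in PC libraries and 21.2, 23.8, 32.3 and 17.2 CPM in LZ libraries, a log2 fold change of 3.81 (SE 0.19, adjusted p = 1.02e-09). Xbp1, the factor that drives ER expansion, read 3408, 4088, 3846 and 3748 CPM in PC and 448, 235, 275 and 275 CPM in LZ, 12.3-fold higher. Irf4 was at 855 to 1002 CPM in PC and 65.9 to 97.6 CPM in LZ, 10.9-fold higher. For all 3 the lowest PC library lay above the highest LZ library, and 55.8% of all genes tested had groups without overlap in either direction.

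Ell2, the elongation factor that favours the secreted form of heavy chain transcripts, was 6.35-fold higher, at 570 ± 28.3 against 89.8 ± 19.5 CPM. Zbtb20 was the member that went down, at 476 to 724 CPM in PC and 647 to 764 CPM in LZ (log2 -0.30, adjusted p = 0.0467). Its groups overlapped, and its call was lost when any of 6 single libraries was left out (replicates 2, 3 and 4 of each population). Fosl2 of this list had too few counts to test.

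The B cell and germinal centre factors went the other way, with 22 of 25 tested lower in PC (88.0%), 1 higher and a median of -2.03. Pax5, which keeps B cell identity, had 3 counts in the 4 PC libraries and read 234, 201, 218 and 225 CPM in LZ, a ratio of 162 (counting interval 60.6 to 862). Bcl6, the repressor that holds cells in the germinal centre state, had 2 counts in PC, both in replicate 2, and read 61.8, 108, 78.6 and 82.0 CPM in LZ. Bach2, which holds back Prdm1, kept a low level of 8.96 to 26.3 CPM in PC against 185 to 241 CPM in LZ, 12.3-fold lower.

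Spib averaged 2.03 ± 2.99 against 240 ± 30.8 CPM, Ebf1 34.6 ± 3.63 against 278 ± 35.4 CPM and Irf8 136 ± 15.2 against 557 ± 52.3 CPM. These B lineage factors thus differed in how much transcript remained in PC. Pou2af1, the OCT-factor coactivator of B cells, was the 1 member higher in PC, at 536 to 778 against 279 to 334 CPM (2.14-fold).

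Plasma cell surface and survival genes were higher in PC for 17 of 19 tested (89.5%), with a median of 3.25, and 1 was lower. Sdc1, the gene of the sorting marker CD138, read 664, 722, 837 and 699 CPM in PC and 4.65, 1.98, 1.17 and 0 CPM in LZ, 374-fold higher. The labels do not say whether CD138 was used in the sort. Slamf7 averaged 1419 ± 101 against 233 ± 15.2 CPM and Ly6c2 1129 ± 73.2 against 20.4 ± 10.9 CPM. Cd93, which marks long-lived plasma cells, averaged 94.1 ± 5.87 against 1.25 ± 1.10 CPM. Slamf7, Ly6c2 and Cd93 were each higher in every PC library than in any LZ library (55.8% of all genes tested had no overlap). Cd38 was lower, at 82.4 to 144 against 102 to 261 CPM (log2 -0.72, adjusted p = 0.0221), with overlapping groups, and its call was lost without PC or LZ replicate 1 or 4. Ly6c1 and Lag3 were not tested.

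**Figure D2:**
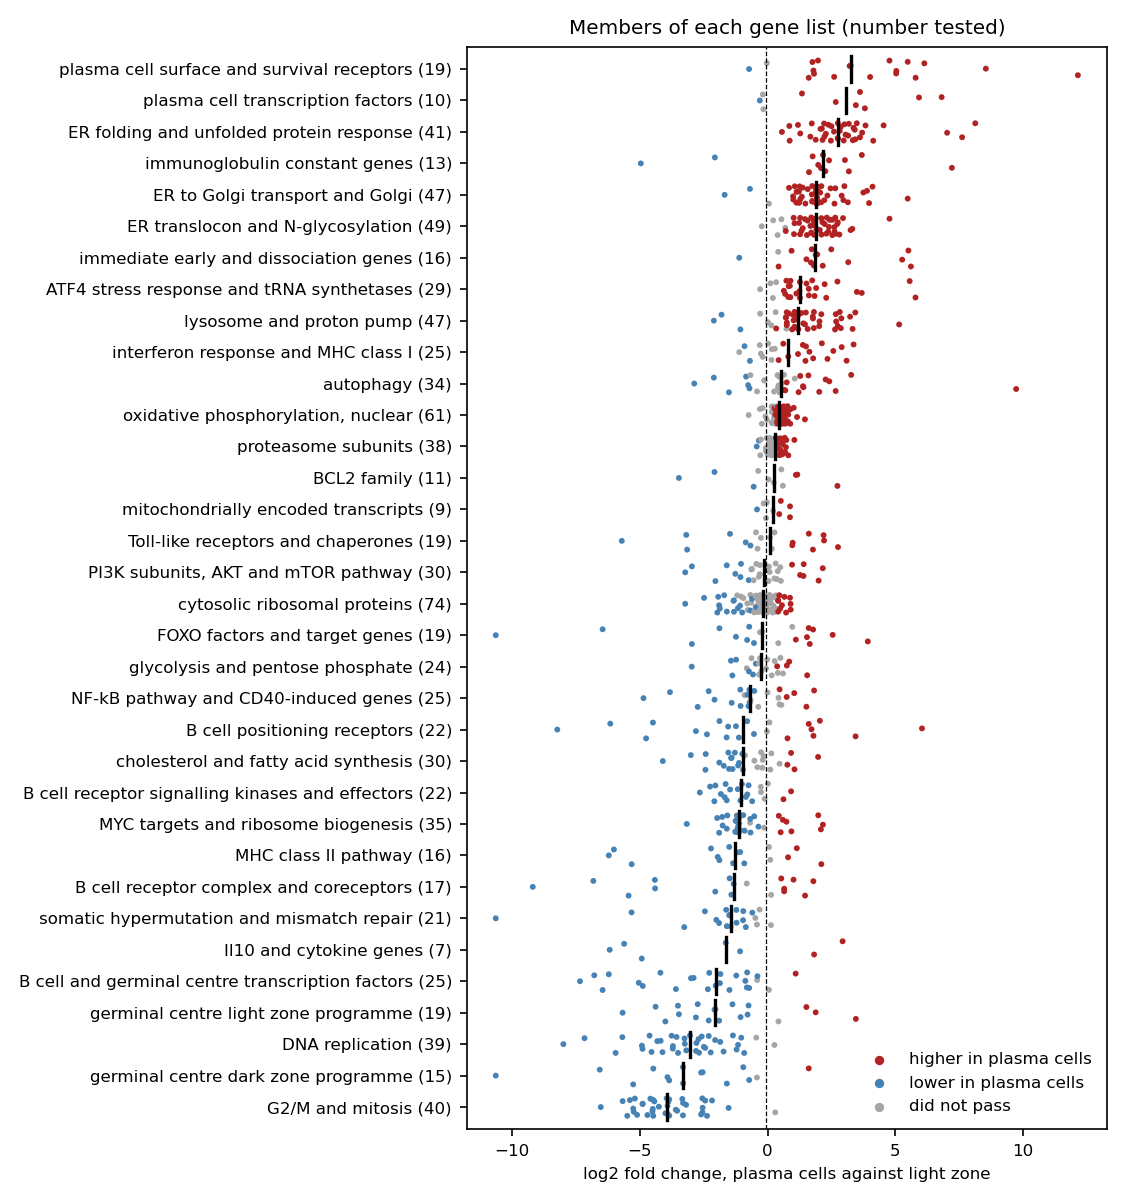
Log2 fold change, plasma cells against light zone, of each tested member of 34 gene lists, with the number tested in brackets, red and blue points for genes higher and lower in plasma cells at an adjusted p below 0.05, grey for the others, black bars for list medians and a dashed line at the median of all genes, -0.07. List medians run from -3.94 for G2/M and mitosis to 3.25 for plasma cell surface and survival receptors.

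All but 2 immunoglobulin constant genes, with Jchain counted among them, were higher in PC, 11 of 13 (84.6%) with a median of 2.17. Igha, the constant gene of IgA, was 148-fold higher, at 2902, 3868, 3355 and 3111 CPM in PC and 12.9 to 31.9 CPM in LZ. Ighg3 (3026 ± 259 against 333 ± 53.5 CPM), Ighg2b (3628 ± 341 against 685 ± 206 CPM), Ighg1 (2435 ± 571 against 718 ± 130 CPM) and Ighm (5736 ± 554 against 1453 ± 161 CPM) were 9.07, 5.30, 3.39 and 3.95-fold higher. Jchain, the peptide that joins secreted IgM and IgA, was 8.15-fold higher, at 4700 ± 420 CPM in PC.

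Ighg2c was uneven among plasma cells, at 1989, 363, 186 and 2941 CPM, against 50.9 to 191 CPM in LZ. Replicates 1 and 4 were high, replicates 2 and 3 low, and the lowest PC library lay within the LZ range. Ighd, of the IgD that naive cells carry, was lower in PC, at 0 to 30.7 against 222 to 400 CPM. Ighe, the constant gene of IgE, was lower too, at 4.33 ± 4.56 against 17.9 ± 5.24 CPM, with overlapping groups (adjusted p = 0.0101). Its call was lost when both libraries of replicate 1 were left out.

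Counts per exonic base bear on these folds. No library held more than 2.075 counts per exonic base for any gene of at least 300 exonic bases. Igkc stood at 1.95 to 1.96 counts per base in PC and up to 1.75 in LZ. Ighm stood at 1.81 to 1.85 and up to 1.34, and Iglc1 at 1.84 to 1.86 and up to 1.24. Among genes tested, of any length, 94 lay above 1 count per base in some PC library and 13 in some LZ library. Correcting the counts for a bound of this kind raised the log2 fold change of Ighm from 1.98 to 2.55, of Igkc from 1.62 to 2.01 and of Iglc1 from 2.09 to 2.75. The folds printed here are those of the deposited counts, and the sources used here do not give whether duplicate reads were removed. The lambda genes Iglc1, Iglc2 and Iglc3 are near copies, and reads may be split among them.

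**Figure D3:**
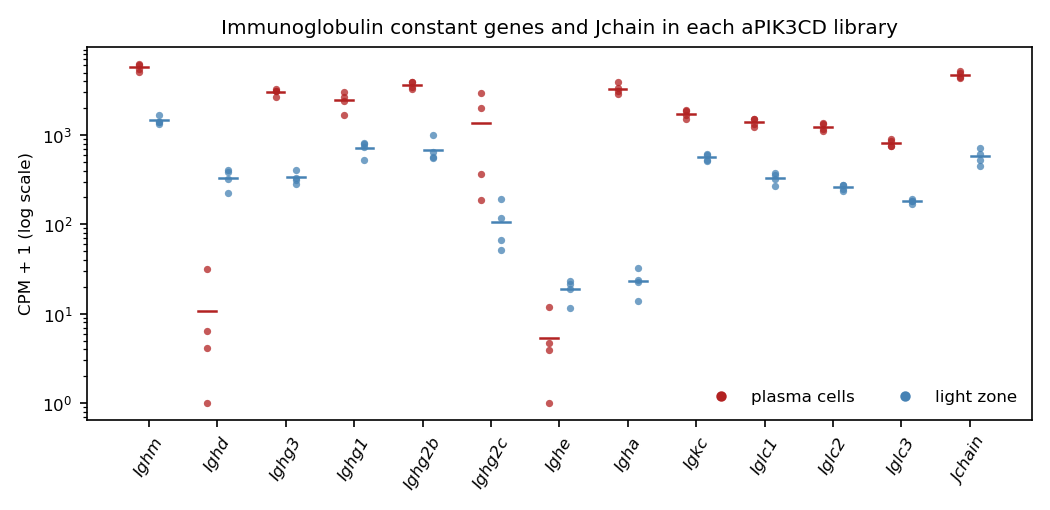
CPM plus 1 (log scale) of 12 immunoglobulin constant genes and Jchain in each aPIK3CD library, plasma cells in red and light zone in blue, with bars at the group means. Igha lies at 2902 to 3868 CPM in plasma cells and 12.9 to 31.9 CPM in the light zone, and Ighg2c spreads from 186 to 2941 CPM among the plasma cell libraries.

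ER folding and unfolded protein response genes were higher in PC without exception among the tested, 41 of 41 (background 29.5%), with log2 fold changes of 0.56 to 8.13 and a median of 2.76. Pdia5, the other matched member, had too few counts to test. Hspa5, the ER chaperone BiP, read 3842, 3893, 3727 and 3670 CPM in PC and 1057, 728, 751 and 731 CPM in LZ, 4.63-fold higher. Creld2, a secreted ER stress protein gene, read 2114, 2154, 2166 and 2138 CPM in PC and 189 to 230 CPM in LZ, 10.3-fold higher (adjusted p = 7.51e-12). Dnajc3, the co-chaperone P58IPK, was 10.1-fold higher at 2003 ± 60 against 199 ± 19.0 CPM. Sel1l, of the complex that draws misfolded proteins out for degradation, was 11.2-fold higher at 2138 ± 102 against 190 ± 15.4 CPM, and Fkbp11, a prolyl isomerase gene, 299-fold higher at 545 ± 27.3 against 1.82 ± 1.14 CPM. All 5 were higher in each PC library than in any LZ library, and 55.8% of all genes tested had groups without overlap in either direction. Creld2, Dnajc3, Sel1l and Fkbp11 were named for the smallest p of the list, which favours such a separation.

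XBP1 and ATF6 are known to bind the ER stress element, CCAAT and CCACG set 9 bases apart, in the promoters of chaperone genes. The motif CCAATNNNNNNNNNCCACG was searched on both strands in windows from 250 bases before to 50 after each RefSeq transcription start (GRCm38.p6). It lay in 9 of the 35 ER folding genes with a window (25.7%) and in 37 of all 27025 genes (0.137%). Together with its second form, ATTGGNCCACG, and the core of the unfolded protein response element, TGACGTGG, 13 of the 35 had a match (37.1%), against 0.884% of all genes, 1.44% of genes tested, 2.72% of genes higher in PC and 0.867% of genes lower in PC. Among 40 ER to Golgi genes 17.5% had a match, each to TGACGTGG, and among 38 translocon and glycosylation genes 5.26%. The promoters of the 3 genes with a match and the smallest p in this list, each 300 bases from RefSeq in GRCm38.p6 and written 5′ to 3′ on the strand of the gene, with the motif in capitals, show the spacing and both orientations. The window of Creld2 is chr15:88819396-88819695 (+) with the motif on the opposite strand, that of Dnajc3 chr14:118937682-118937981 (+) with it on the strand of the gene, and that of Hsp90b1 chr10:86705395-86705694 (-) with one on each.
Creld2: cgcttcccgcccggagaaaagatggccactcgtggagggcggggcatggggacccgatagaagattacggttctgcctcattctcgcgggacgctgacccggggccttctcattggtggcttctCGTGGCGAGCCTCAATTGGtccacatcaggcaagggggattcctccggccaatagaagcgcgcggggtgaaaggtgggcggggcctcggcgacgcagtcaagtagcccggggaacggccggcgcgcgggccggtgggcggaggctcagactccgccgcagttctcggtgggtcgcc
Dnajc3: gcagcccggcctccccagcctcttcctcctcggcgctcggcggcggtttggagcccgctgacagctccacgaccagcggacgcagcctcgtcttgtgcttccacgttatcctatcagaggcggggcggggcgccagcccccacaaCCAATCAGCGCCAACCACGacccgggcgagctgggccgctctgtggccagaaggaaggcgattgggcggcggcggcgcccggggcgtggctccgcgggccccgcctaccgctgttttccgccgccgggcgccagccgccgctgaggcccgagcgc
Hsp90b1: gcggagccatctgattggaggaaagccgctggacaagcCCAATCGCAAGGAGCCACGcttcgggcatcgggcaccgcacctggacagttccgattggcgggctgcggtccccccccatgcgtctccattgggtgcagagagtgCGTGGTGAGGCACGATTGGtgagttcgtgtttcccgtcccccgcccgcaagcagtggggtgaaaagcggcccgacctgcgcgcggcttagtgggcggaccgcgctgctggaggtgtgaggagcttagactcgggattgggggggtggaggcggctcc
Hsp90b1 encodes GRP94, the ER member of the HSP90 family, and was 6.75-fold higher in PC, at 3562 ± 188 against 527 ± 54.8 CPM. A match is a description of these letters and not a bound site.

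The rest of the secretory route followed the folding genes. Translocon and N-glycosylation genes were higher in PC for 44 of 49 tested (89.8%) and lower for none, with a median of 1.88. Sec61a1, the pore of the translocon, was 6.15-fold higher at 521 to 649 against 74.1 to 98.3 CPM. The signal peptidase subunits Spcs3 (9.51-fold), Spcs1 (6.30-fold) and Sec11c (5.17-fold) and the translocon-associated Ssr4 (7.01-fold) had the smallest p-values of the list.

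ER to Golgi and Golgi genes were higher for 44 of 47 (93.6%), with a median of 1.90. The cargo receptor genes Tmed3 (14.8-fold) and Tmed10 (6.28-fold), Ergic1 of the intermediate compartment (13.5-fold), Mcfd2, the partner of the lectin LMAN1 (8.85-fold), and Sec23b, of the coat of export vesicles (3.88-fold, 347 ± 76.9 against 89.5 ± 13.6 CPM), were among them. The 2 lower members were the SNARE gene Bnip1 (36.5 ± 15 against 119 ± 11.7 CPM) and Sec24b (45.7 ± 18.3 against 73.3 ± 14.3 CPM, adjusted p = 0.0427), whose groups overlapped. The call of Sec24b was lost without any of 5 single libraries, PC replicates 1 and 2 and LZ replicates 2, 3 and 4.

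ATF4 stress and tRNA synthetase genes, which restore amino acids under ER or nutrient stress, were higher for 25 of 29 tested (86.2%) and lower for none, with a median of 1.26. Slc3a2, the heavy chain of the CD98 amino acid transporter, read 2645, 2626, 2534 and 2980 CPM in PC and 193 to 228 CPM in LZ, 12.9-fold higher, with one of the smallest p-values of all genes (adjusted p = 4.28e-12). Pycr1, of proline synthesis, was 55.4-fold higher (789 ± 64.4 against 14.2 ± 10.4 CPM), Chac1, which breaks down glutathione, 48.9-fold higher (121 ± 25.8 against 2.48 ± 1.14 CPM) and Ppp1r15a, which restarts translation by dephosphorylating eIF2, 11.3-fold higher. Ddit3, the stress factor CHOP, was 3.75-fold higher at 188 to 244 against 52.5 to 70.4 CPM.

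Genes of division were lower in PC almost throughout. Of 39 DNA replication genes tested, 37 were lower (94.9%, background 31.6%) and none higher, with a median of -3.04, and of 40 G2/M and mitosis genes 39 were lower (97.5%) and none higher, with a median of -3.94. Mcm3, of the replicative helicase, read 19.0, 29.2, 7.17 and 22.2 CPM in PC and 353 to 482 CPM in LZ, 20.1-fold lower. Uhrf1 (53.8-fold) and Dnmt1 (8.22-fold), which copy DNA methylation, Lig1 (13.4-fold) and Mcm2 (6.41-fold) were also lower.

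Top2a, the topoisomerase of dividing cells, read 14.6, 45.6, 12.5 and 12.7 CPM in PC and 764 to 854 CPM in LZ, 37.6-fold lower, and the kinetochore genes Cenpe and Cenpf were 45.7-fold and 53.4-fold lower. Mki67 kept more transcript in plasma cells than these genes, at 161, 126, 87.8 and 173 CPM against 751 to 835 CPM in LZ, 5.86-fold lower (log2 -2.54, SE 0.17). Birc5, the mitotic survival protein survivin, was 15.2-fold lower.

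Myc, the transcription factor gene that light zone cells switch on after T cell help, was 3.70-fold lower in PC. It read 29.2, 51.0, 53.8 and 55.5 CPM in PC and 164 to 198 CPM in LZ. Of 35 MYC target and ribosome biogenesis genes tested, 25 were lower (71.4%) and 8 higher (22.9%), with a median of -1.11. Tfrc, the transferrin receptor (9.0-fold), Dkc1, of the RNA pseudouridylation complex (3.95-fold), Ncl, nucleolin (2.35-fold) and Ldha (2.35-fold) were lower. Ccnd2, a D-type cyclin (4.49-fold), Mxd4, a MAX partner that opposes MYC (4.23-fold), Srm, spermidine synthase (1.91-fold) and Eif5a (1.43-fold) were higher. Cytosolic ribosomal protein genes showed no common direction, with 11 of 74 higher (14.9%) and 17 lower (23.0%), below the background in both, and a median of -0.19. Rpl4 was higher by 1.33-fold, and Rpl13a (14.3 against 56.7 CPM) and Rpl21 (4.96 against 28.3 CPM) lower, but these genes have many processed copies in the genome and reads may be split among them.

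Of 19 light zone programme genes tested, 15 were lower in PC (78.9%) and 3 higher, with a median of -2.04. The labels do not say whether CD83, CD86 or CXCR4 was used in the sort, which would bear on the levels of these genes. Cd83, a maturation marker that can be used to sort light zone cells, read 93.4, 159, 145 and 113 CPM in PC. It read 540 to 805 CPM in LZ and was 4.92-fold lower in PC. Cd86, the costimulatory ligand of CD28, read 0, 20, 16.1 and 17.4 CPM in PC and 244 to 306 CPM in LZ, 20.3-fold lower. Slamf1 (51.7-fold) and Cd40 (6.73-fold), through which T cells help, were lower. The 3 higher were Irf4, Egr1 (3.68-fold) and Nfkbia (2.86-fold), which also belong to the plasma cell, immediate early and NF-kB lists.

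Dark zone programme genes were lower for 13 of 15 (86.7%), with a median of -3.31. The germinal centre adaptor gene Gcsam was at 2.07 ± 1.67 against 207 ± 33.6 CPM and Aurka at 8.40 ± 3.45 against 194 ± 45 CPM. Cxcr4, the receptor that draws cells to the dark zone and plasma cells to their niche, was the higher member, at 81.7, 100.2, 71.7 and 80.8 CPM in PC and 18.6 to 32.8 CPM in LZ (3.08-fold). Of 21 hypermutation and mismatch repair genes 17 were lower (81.0%) and none higher, with a median of -1.45, among them Exo1 (39.7-fold), Mbd4 (5.53-fold) and Rif1 (3.07-fold).

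Of 22 positioning receptor genes tested, 13 were lower (59.1%, background 31.6%), with a median of -0.96. The 7 that were higher (31.8%) made up a share near the background of 29.5%. Cxcr5, which holds B cells in the follicle, was 74.1-fold lower (3.29 ± 2.44 against 244 ± 35.6 CPM) and S1pr2, which confines them to the germinal centre, 26.6-fold lower (10.2 ± 5.16 against 272 ± 28.8 CPM), together with its signalling partner Gna13 (3.06-fold). S1pr1, the egress receptor, was lower too (22.3 ± 10.5 against 84.6 ± 8.48 CPM). The mucosal homing receptor Ccr10 was higher at 48.4 to 96.6 against 0 to 2.66 CPM (72.3-fold), as were the integrins Itga4 (4.13-fold) and Itgal (3.29-fold).

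Of 17 B cell receptor components tested, 9 were lower (52.9%, background 31.6%), with a median of -1.33. The 6 that were higher (35.3%) made up a share near the background of 29.5%. The signalling chains Cd79a (885 to 1039 against 421 to 543 CPM, 2.02-fold) and Cd79b (1.57-fold), the tetraspanin Cd81 (3.46-fold) and Fcrla, an intracellular Fc receptor-like protein (2.76-fold), were higher. Fcer2a (128-fold), Cd72 (42.2-fold), Siglecg (21.8-fold) and Ms4a1, the gene of CD20 (2.67-fold), were lower. Among signalling kinases and effectors 16 of 22 were lower (72.7%) and 2 higher (9.09%), with a median of -1.04. Bank1 (4.79-fold), Prkcb (3.56-fold), Blk (2.77-fold) and Swap70 (2.09-fold) were lower, and the adaptors Blnk (1.54-fold) and Bcl10 (1.89-fold) higher.

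The MHC class II pathway was lower for 11 of 16 (68.8%) with a median of -1.27, yet unevenly. Ciita, its master regulator, read 10.2, 0, 0 and 1.58 CPM in PC and 218 to 300 CPM in LZ, 85.4-fold lower. The peptide editors H2-DMb2 (66.0-fold), H2-Oa (41.6-fold) and H2-Ob (4.66-fold) were lower, and H2-Aa, of the presenting molecule itself, fell to 372 ± 60.5 against 951 ± 69.9 CPM (2.56-fold). Cd74, the invariant chain, was higher at 2489 to 3059 against 1178 to 1384 CPM (2.21-fold), as were the protease Ctss, which trims it (4.29-fold), and Rfxank (1.75-fold). The call of Rfxank was lost when both libraries of replicate 1 were left out.

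Interferon response and MHC class I genes were higher for 15 of 25 tested (60%) with a median of 0.81. B2m, the light chain of MHC class I, was 3.44-fold higher (1965 ± 132 against 571 ± 46.0 CPM), H2-K1 2.83-fold, the nucleic acid sensor gene Zbp1 7.5-fold and the nuclease gene Isg20 8.53-fold. Stat2 and Nlrc5, the class I transactivator, were lower (1.6-fold and 1.89-fold), both with overlapping groups, and the call of Stat2 was lost without PC replicate 1 or 4 or LZ replicate 2, 3 or 4. The class I genes are close relatives of each other and reads may be split among them.

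PI3K pathway genes as a list lay near the background, with 6 of 30 tested higher (20%), 9 lower (30.0%) and a median of -0.13. Pik3cd itself read 58.4, 62.0, 100.3 and 72.9 CPM in PC and 117, 182, 143 and 161 CPM in LZ, 2.05-fold lower (log2 -1.04, SE 0.20, adjusted p = 0.000458). In WT it averaged 116 ± 10.8 CPM in PC and 160 ± 13.2 CPM in LZ, and the log2 change of aPIK3CD minus that of WT was -0.58 (SE 0.25, adjusted p = 0.563). Transcript level does not show whether the kinase is active, and the labels do not say whether the altered allele is counted as Pik3cd.

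Pik3cg, the catalytic subunit used by chemokine receptors, was higher at 239 to 258 against 42.8 to 61.5 CPM (4.46-fold). Of the adaptors and phosphatases, Pik3ap1 (4.15-fold) and Inpp5d, which encodes SHIP1 (3.06-fold), were lower and Inpp4b was higher (2.65-fold). Downstream, Eif4ebp1, a translation repressor that mTOR inactivates, was 3.99-fold and the mTOR activator Rheb 1.94-fold higher, while the S6 kinase gene Rps6kb1 was 1.67-fold and the mTOR inhibitor Sesn3 7.80-fold lower.

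Of 19 FOXO factors and targets tested 7 were higher (36.8%) and 8 lower (42.1%). The median was -0.22 and turned positive in 6 of the 8 fits that left out 1 library, between 0.06 and 0.18. Foxo1 was 1.65-fold lower (143 ± 29.2 against 235 ± 15.8 CPM). Irs2, the insulin receptor substrate (15-fold), and the ubiquitin ligase gene Fbxo32 (18.8 ± 5.39 against 3.01 ± 3.56 CPM) were higher. Klf2, which drives S1pr1, was at 23.0 ± 12.0 against 39.9 ± 5.10 CPM with an adjusted p of 0.0494, and its call was lost without PC replicate 1, 2 or 4 or any single LZ library.

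BCL2 family genes did not share a direction, with 3 higher, 3 lower and 5 not passing of 11 tested. Bcl2 read 124, 186, 115 and 124 CPM in PC and 13.9 to 27.1 CPM in LZ, 6.74-fold higher, and Mcl1, on which plasma cells depend for survival, 727 to 876 against 354 to 376 CPM, 2.24-fold higher. Bcl2l11, the death gene BIM, was also higher (2.15-fold). Bcl2a1b (4.28-fold) and Bcl2a1d (10.9-fold), near copies of each other, and Bid (1.46-fold) were lower. The list median of 0.24 turned to -0.09 on thinned counts.

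In the NF-kB list 13 of 25 were lower (52.0%) and 5 higher (20%), with a median of -0.70. Rel, the subunit that germinal centre cells rely on, was 14.0-fold lower (13.9 ± 3.94 against 195 ± 19.2 CPM) and Marcksl1 28.8-fold lower. Nfkbia, the inhibitor that NF-kB itself induces, read 1270, 1199, 1211 and 1201 CPM in PC and 397 to 442 CPM in LZ. Ebi3, a cytokine subunit (3.56-fold), and Cflar, which blocks caspase-8 (2.06-fold), were higher. Tnfaip3 was 1.67-fold higher with overlapping groups, and its call was lost without PC replicate 1 or 3, LZ replicate 3 or 4, or on thinned counts.

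Of 7 cytokine genes tested 5 were lower (71.4%) and 2 higher (28.6%). Il10 was higher at 75.9, 67.4, 68.1 and 90.3 CPM against 4.69 to 13.9 CPM (7.72-fold), beside Ebi3. Lta (75.7-fold), Tnfsf9, the ligand of 4-1BB (48.0-fold), Tnf (36.4-fold) and Ltb (3.10-fold) were lower. Among Toll-like receptor genes 7 of 19 were higher (36.8%) and 6 lower (31.6%). Tlr7, the sensor of single-stranded RNA, was at 37.6 to 78.4 against 5.95 to 21.9 CPM (4.58-fold higher) with its transporter Unc93b1 (1.95-fold), while Tlr1 (55.6-fold), Cd180 (9.01-fold) and its partner Ly86 (8.92-fold) were lower.

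Immediate early and dissociation genes were higher in PC for 14 of 16 tested (87.5%), with a median of 1.85. Fos read 1582, 1795, 1314 and 1439 CPM in PC and 48.5, 29.8, 24.6 and 23.3 CPM in LZ, 48.6-fold higher (log2 5.61, SE 0.21, adjusted p = 8.56e-11). Jun was at 355 to 579 against 3.98 to 17.0 CPM (46.9-fold), Fosb at 157 ± 45.8 against 3.95 ± 1.77 CPM (39.8-fold) and Zfp36 5.64-fold higher. Hsp90aa1 was the lower member (2.16-fold). The list holds genes that cell isolation can induce. Time from tissue to lysis is not in the labels, and its part in these values was not tested.

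Lysosome and proton pump genes were higher for 39 of 47 (83.0%), with a median of 1.2. The protease Ctsb (6.41-fold), the cholesterol carrier Npc2 (6.71-fold) and the membrane glycoprotein Lamp1 (575 ± 123 against 168 ± 46.0 CPM, 3.43-fold) were higher, and Ctsh and Tfeb, the factor that drives lysosomal genes, were lower, Tfeb at 17.3 ± 15.2 against 72.5 ± 12.0 CPM. Of 34 autophagy genes 14 were higher (41.2%) and 6 lower (17.6%), with a median of 0.53. The receptor Sqstm1 read 868, 889, 839 and 926 CPM in PC and 116 to 244 CPM in LZ (5.33-fold), Map1lc3b, the membrane tag of autophagosomes, was 4.06-fold and Atg5 3.03-fold higher, and the receptor Optn (7.57-fold) and Uvrag (2.86-fold) lower.

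Proteasome subunit genes were higher for 18 of 38 (47.4%) and lower for 2, with small changes, a median of 0.29 and a highest value of 1.048. The catalytic Psmb5 (148 ± 9.90 against 89.4 ± 6.18 CPM, 1.66-fold), Psmb6 (1.6-fold) and the immunoproteasome subunit Psmb8 (1.64-fold) were higher. Psmd14 and Psme3 were 1.27-fold and 1.35-fold lower, and the call of Psme3 was lost without any PC library or without LZ replicate 1 or 2, that of Psmd14 without PC replicate 3.

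Nuclear-encoded oxidative phosphorylation genes were higher for 44 of 61 (72.1%) and lower for none, with a median of 0.44. Ndufa1 (2.75-fold), Ndufs3 (2.22-fold), Sdhc (2.03-fold) and Uqcrq (1.85-fold) had the smallest p-values, and Ndufs1 was at 166 ± 16.5 against 169 ± 25.2 CPM. Of 9 mitochondrially encoded transcripts 4 were higher, with mt-Co1 at 1531 ± 153 against 835 ± 58.3 CPM. Their median of 0.22 turned to -0.17 when counts were corrected for the bound per exonic base, and mt-Rnr1, the lower member, lost its call without PC replicate 3 or 4 or LZ replicate 2.

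Glycolysis and pentose phosphate genes were higher for 4 of 24 (16.7%) and lower for 7 (29.2%), with a median of -0.27. Hk2, the inducible hexokinase, was at 30.5 ± 9.83 against 38.4 ± 16.2 CPM and did not pass (adjusted p = 0.431). Slc16a1, a lactate carrier (8.19-fold), Pgd (2.69-fold) and Tkt (2.59-fold), of the pentose phosphate pathway, were lower and Pdk1, which keeps pyruvate from the mitochondrion, higher (2.91-fold). The calls of the other 3 higher members were each lost without some single library, that of Hk1 without any PC library or LZ replicate 1 or 3, that of Taldo1 without PC or LZ replicate 4, PC replicate 1 or LZ replicate 3, and that of Pfkl without PC replicate 3 or LZ replicate 2. Cholesterol and fatty acid genes were lower for 16 of 30 (53.3%) and higher for 4 (13.3%), with a median of -0.98. Sqle (5.37-fold), Cyp51 (3.68-fold) and Srebf2, the factor that drives them (2.60-fold), were lower, while Ebp, a later enzyme of the pathway, was 3.94-fold higher.

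The naive and dark zone libraries of the same genotype place these levels, as values on a scale set over all 4 populations and with no test. Xbp1 stood near 322 to 349 CPM on average in naive, dark zone and light zone cells and at 4013 ± 267 CPM in PC. Bcl2 was low in the dark zone (8.60 ± 4.87 CPM) and light zone (21.7 ± 5.82 CPM) and like PC (146 ± 33.9 CPM) in naive cells (135 ± 17.2 CPM). Cxcr4 was lowest in the light zone (29.0 ± 6.91 CPM), followed by the dark zone (60.2 ± 14.9), naive cells (77.5 ± 10.7) and PC (89.0 ± 12.4 CPM), and the last 2 did not differ beyond their spread.

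Mki67 fell in the order dark zone (1188 ± 55.8 CPM), light zone (857 ± 30.3), PC (146 ± 42.5) and naive cells (4.94 ± 6.73 CPM). The level in PC thus lay between those of germinal centre and naive cells. Fos was at 33.9 to 46.9 CPM on average in the other 3 populations and at 1631 ± 216 CPM in PC.

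**Figure D4:**
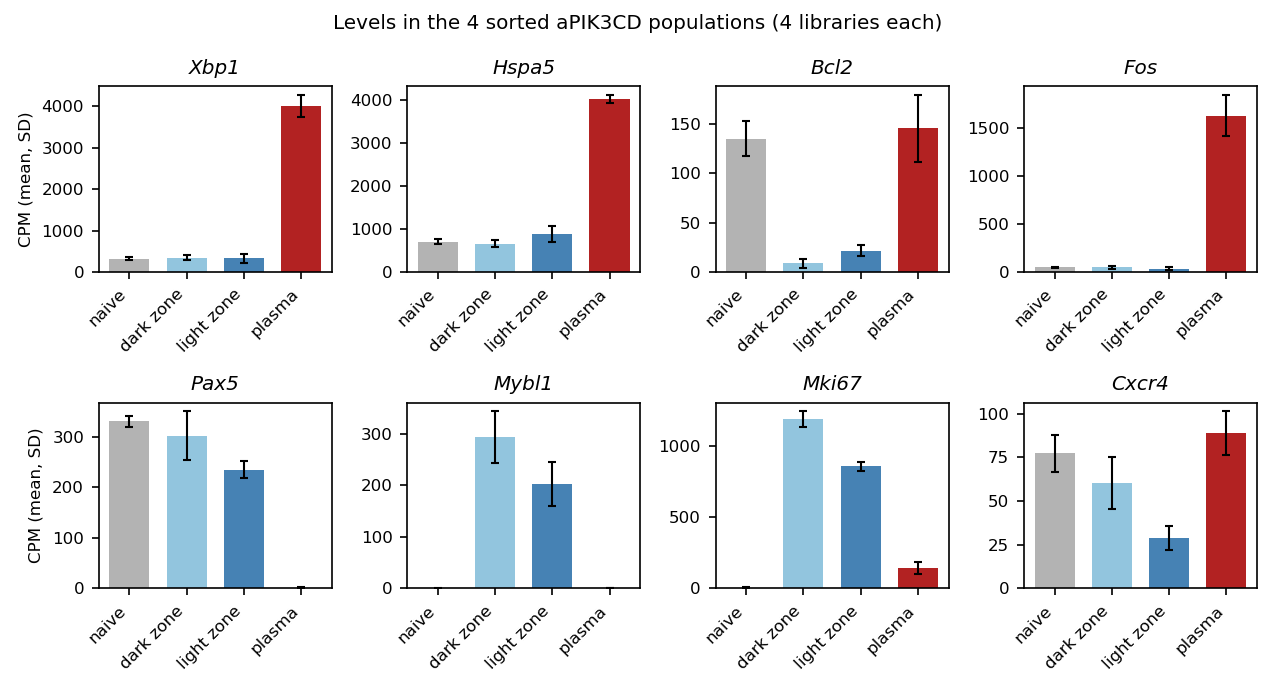
Mean CPM (bars, with SD over 4 libraries) of 8 genes in naive, dark zone, light zone and plasma cell libraries of the aPIK3CD group. Bcl2 is at 135 CPM in naive cells, 8.60 and 21.7 CPM in the germinal centre and 146 CPM in plasma cells, and Mki67 is at 1188 CPM in the dark zone and 146 CPM in plasma cells.

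The same comparison was made in the WT libraries, which share none with the aPIK3CD groups. In WT, 2541 of 9037 genes (28.1%) were higher and 2555 (28.3%) lower in PC, 56.4% in either direction. Of the 5495 genes called in aPIK3CD and tested in both, 4410 were called in the same direction in WT (80.3%, or 88.2% of the 5001 WT calls), 7 in the opposite direction, and 1078 were not called in WT, of which 993 had the same sign there. Across the 8870 genes tested in both, the log2 fold changes correlated with r = 0.942, as a description over genes, which are not replicates. All 41 ER folding calls, 37 of 37 replication calls and 39 of 39 mitosis calls were made in WT too.

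The difference between the genotypes was tested as an interaction over the 16 PC and LZ libraries. Of 9881 genes, 4 passed (0.0405%), 1 with a change more positive in aPIK3CD (0.0101%) and 3 with a change more negative (0.0304%), and 833 had an unadjusted p below 0.05. None was a member of a gene list, where the lowest adjusted p was 0.118, for Cnpy3, a chaperone of Toll-like receptors. The DESeq2 Wald test called 35 genes, and limma voom and a fit over all 8 groups none. No gene passed without LZ_WT replicate 1, PC_WT replicate 1, PC_WT replicate 2 or PC_aPIK3CD replicate 1, nor when the libraries of aPIK3CD replicate 1 were counted as WT, as their genotype field reads.

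Osbpl3, an oxysterol-binding lipid carrier, was lower in PC than in LZ in aPIK3CD and higher in WT. It read 7.30, 7.23, 7.12 and 7.95 CPM in PC and 16.3 to 32.9 CPM in LZ of aPIK3CD, and 75.8, 74.8, 71.5 and 44.0 CPM in PC and 23.6 to 39.3 CPM in LZ of WT. Light zone levels thus overlapped between genotypes and plasma cell levels did not. The log2 change of aPIK3CD minus that of WT was -2.92 (SE 0.44, adjusted p = 0.0168, over the alternatives 7.68e-05 to 0.410).

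Pdxdc1, which has a pyridoxal-dependent decarboxylase domain, rose more in aPIK3CD, with 153 ± 11.8 CPM in PC and 28.6 ± 6.18 in LZ against 68.4 ± 6.39 and 36.8 ± 4.22 CPM in WT (difference 1.51, SE 0.26, adjusted p = 0.0323, range 0.000696 to 0.413). Oosp1, an oocyte-secreted protein gene, was at 466 ± 65.0 and 430 ± 61.2 CPM in PC of aPIK3CD and WT. In LZ it was at 8.58 ± 3.27 and 0.866 ± 0.795 CPM. The difference of -2.97 (adjusted p = 0.0323, range 2.21e-07 to 0.351) thus lay in the light zone level, which rests on few counts in WT. The calls of Oosp1, Pdxdc1 and Osbpl3 were lost in 16, 18 and 7 of 26 alternative runs. Igkv3-4, a kappa variable segment named here after its values were seen, was at 13 ± 7.53 CPM in PC and 7.64 ± 9.86 in LZ of aPIK3CD and at 900 ± 99.9 and 23.7 ± 10 CPM in WT (difference -4.50, adjusted p = 0.0345). Variable segments resemble each other and are used clonally, and reads may be split among them.

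**Figure D5:**
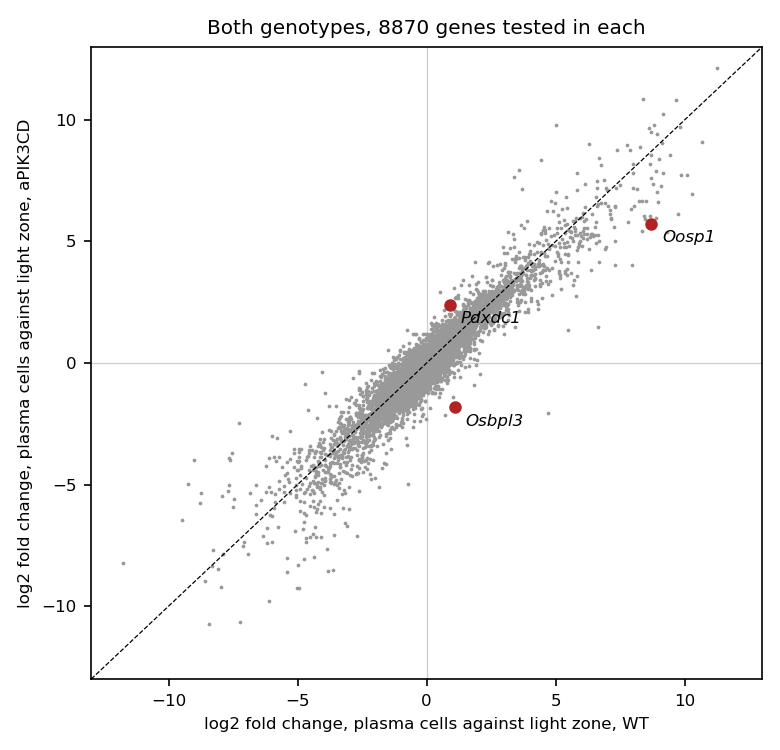
Log2 fold change, plasma cells against light zone, in WT (x axis) and aPIK3CD (y axis), 1 point for each of the 8870 genes tested in both, with a dashed line of equal change and red points for genes that passed the test of the difference. Osbpl3, Pdxdc1 and Oosp1 lie off the line, and Igkv3-4 is not drawn because it had too few counts for the fit on aPIK3CD alone.

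The next genes in the test of the difference did not pass. Fcmr, the Fc receptor for IgM, averaged 399 ± 65.7 CPM in PC of aPIK3CD and 171 ± 28.9 CPM in PC of WT, with 514 ± 99.1 and 502 ± 59.5 CPM in LZ (difference 1.19, adjusted p = 0.0729). Spns3, of a lipid transporter family (difference 2.0, adjusted p = 0.0820), and Cnpy3 (difference 1.67, adjusted p = 0.118) followed, and the calcium channel gene Itpr1 (difference -2.07, adjusted p = 0.171) was at 12.0 ± 10.3 CPM in PC of aPIK3CD and 65.1 ± 16.2 CPM in PC of WT.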

How the data were processed

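RNA-seq was deposited as 1 table of raw counts for 53465 genes in 32 libraries, of which the 8 plasma cell and light zone aPIK3CD libraries were compared and the 8 matching WT libraries set beside them. The tools named in the submitters' processing notes are Picard, HTSeq and STAR 2.4.2a; their roles, the genome build, the strand setting and the treatment of duplicate reads are not given in the sources used here. The deposited counts are whole numbers, 1 column per library, and groups were taken from titles and column names. Libraries held 473149 to 1835558 counts in the 4 groups fitted, so low genes are measured less precisely in plasma cells.

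Genes were kept by edgeR's filterByExpr (minimum count 10, minimum total 15), scaled by TMM and fitted with edgeR 4.0.16 (glmQLFit, glmQLFTest, two-sided, R 4.3.3), 2 groups for each comparison and 4 for the difference between genotypes, with Benjamini-Hochberg adjustment over all genes tested and a threshold of 0.05. CPM are TMM-scaled. The scripts were tested on simulated data with known changes. A fold is the ratio of group means. Where 1 group had no count it was set against 3 counts over that group (1.24 CPM in PC, 0.46 CPM in LZ), and with 1 to 3 counts the ratio is given with its exact interval, which covers counting error only. DESeq2 1.42.0 and limma 3.58.1 (voom) served as alternatives, beside other filters, thinning, a replicate block and leaving out libraries.

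The text names Pik3cd, the 12 named genes per direction with the largest fold change and a mean of at least 50 CPM in the higher group, a fixed set of regulators, up to 4 members per list and direction with the smallest p, up to 8 genes per direction from the test of the difference, and the immunoglobulin constant genes. A few genes that this rule names are not reported here. Others are marked as chosen after their values were seen. The members and gene lists were chosen with earlier results of these data known. Of 980 list symbols 6 were left out, 3 that matched no gene and 3 that were ambiguous. Replicate numbers recur across groups, but the labels do not tie them to mice. In the column names the 4 populations of a number share a letter, such as E for aPIK3CD number 1. The 4 libraries of that number also share the genotype field AID-cre WT. What the letter stands for is not stated. Libraries were not paired in the main fit, and a replicate block served as an alternative.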

Additional observations from a re-analysis of the deposited data

Results flagged for a closer look

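In 226 of the genes named in the text, the 4 libraries of each group were searched for 1 library whose gap to the nearest of the others, as a share of the group's range, exceeded Dixon's critical value at the 95% level. Of 442 groups of 4 with any spread, 39 held such a library (8.82%). The rate of 1 in 20 behind Dixon's value holds for independent, normally distributed values. CPM of genes from the same libraries are not of that kind, so 8.82% was not read as an excess. In 9 of the 39 the other 3 libraries had no count, and the gap rests on a few counts.

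LZ replicate 1 stood apart most often, for 11 genes. It was high for Hspa5 (1057 CPM, the others 728 to 751), Hsp90b1 (609.6, others 497 to 502), Mcm3 (482.1, others 353 to 361), Cd81 (404.4, others 306 to 318), Cd83 (805.5, others 539.6 to 584), Tnf (61.1) and, with 1 count each, Cox6a2 (0.664) and Slc39a4 (0.664). It was low for Bnip1 (101.6 CPM), Itpr1 (56.4) and Stat2 (48.5, others 98.0 to 101.8). Its genotype field reads WT, as does that of PC replicate 1, which stood apart for 5 genes, against 4 to 6 in the other PC libraries. A link with this field was not tested. In LZ replicate 2, Ndufa1 (150.1 CPM) and Kcnmb4os2 (0.661) were high. In LZ replicate 3, Ankle1 (75.1 CPM), Fkbp11 (3.52) and Spns3 (24.6) were high and Pik3cg (42.8) low, and in LZ replicate 4, Pgd (106.4 CPM), Fbxo32 (8.31) and Fndc3b (0.554) were high.

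Among plasma cells, replicate 1 was high for Ciita (10.2 CPM), Nlrc5 (75.9), Tnf (5.84) and Emid1 (1.46) and low for Myc (29.2, others 51.0 to 55.5). Replicate 2 was high for Top2a (45.6 CPM, others 12.5 to 14.6), Bcl2 (185.9, others 114.7 to 124), Hsp90b1 (3844, others 3459 to 3476) and Bcl6 (3.65, the only library with a count). Replicate 3 was high for Sec61a1 (648.7 CPM, others 521 to 533), Ergic1 (971.2), Psmb6 (693.5) and Pfkl (134.4, others 65.0 to 74.7) and low for Fbxo32 (10.8, others 20.6 to 21.9) and Psmd14 (259.8). Replicate 4 was high for Wipi1 (122 CPM, others 84.2 to 86.1), Psmb5 (163.2), Nxpe2 (1.58) and Parp8 (1.58).

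Of 24 groups of marker sums, 3 held a library that stood apart by the same measure. The erythroid and platelet sum was 259.9 CPM in PC replicate 4 (others 10.2 to 25.5), the stromal and endothelial sum 84.0 CPM in the same library (others 52.5 to 56.5), and the T cell sum 392.8 CPM in LZ replicate 2 (others 530.2 to 553).

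The change between plasma cells and light zone differed between the genotypes for 4 genes in edgeR's interaction test. The log2 difference, aPIK3CD minus WT, was -2.92 for Osbpl3, -2.97 for Oosp1, -4.50 for Igkv3-4 and 1.51 for Pdxdc1.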

How the results depend on the processing

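The counts of genes higher and lower in plasma cells stayed within 1.5 times of 2787 and 2982 in every alternative run except a test against a 2-fold change, which called 1414 and 1220. Leaving out 1 library gave 2672 to 2790 higher and 2639 to 2915 lower genes. No named gene that passed the test in the aPIK3CD comparison changed direction under any of these alternatives. Over the genes tested in both runs, the median shift in log2 fold change per gene was 0.012 with DESeq2 size factors. It was 0.0358 without immunoglobulin and T cell receptor genes. The deviations of same-numbered PC and LZ libraries correlated between -0.0193 and 0.0131 in aPIK3CD and between -0.0046 and 0.1164 in WT. Those of libraries with different numbers ran from -0.0292 to 0.0231 in aPIK3CD and from -0.1655 to 0.1596 in WT. Such values cannot show whether same-numbered libraries share a mouse. With the replicate number as a block, 2663 genes were higher and 2791 lower, 5406 of the 5769 calls were kept, and 4 genes passed the test of the difference, with Osbpl3 among them (adjusted p = 0.0379) but not Oosp1 (0.086) or Pdxdc1 (0.0939). The count of 4 genes whose change differed between the genotypes was 35 by the DESeq2 Wald test, 0 by limma voom, 139 without a filter on low counts, 2 on thinned counts, 0 in 1 fit over all 8 groups, 0 with aPIK3CD replicate 1 counted as WT, and 0 to 6 without 1 library. The cause was not tested. Of the list medians, that of the BCL2 family (0.24) became -0.0944 on thinned counts, and that of mitochondrially encoded transcripts (0.22) became -0.1748 when counts were corrected for the bound per exonic base. The FOXO median (-0.22) lay between -0.2711 and 0.1808 without 1 library, above 0 in 6 of the 8 fits, and was 0.068 in 1 fit over the 4 populations and 0.1233 with that correction. Plasma cell libraries hold fewer counts than light zone libraries, so a gene without a count there may be present at up to 1.24 CPM.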
